A study of Mus musculus with 2 samples.

Results

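The PD-1 ligands and a group of checkpoint molecules that myeloid cells carry were followed in single GR-1+ cells from mouse mammary tumors treated with anti-PD1. The 10 genes were Cd274 (PD-L1), Pdcd1lg2 (PD-L2), Pdcd1 (PD-1), Cd80, Cd86, Havcr2 (TIM-3), Lgals9 (galectin-9), Cd200r1, Sirpa and Cd47. They were chosen by symbol, and all 10 are among the 28692 genes listed in both count matrices. Only RNA was measured, as UMIs (unique molecular identifiers, each standing for 1 captured transcript) by 10x Genomics 3′ v3 chemistry, so surface protein is not reported here.

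Female BALB/c mice aged 8 to 10 weeks received 4T1 cells in the mammary fat pad. One library came from tumors of 4T1p, the parental triple-negative breast carcinoma line, which resists anti-PD1. The other came from tumors of 4T1m, a polyclonal line made from it by mutagenesis with MNNG and responsive to the antibody. Mice of both groups were given anti-PD1 for 2 weeks, tumors were digested with collagenase IV and DNase I, and GR-1+ cells were selected on magnetic beads. There is 1 library per tumor type, how many mice each library pools is not given in the sources used here, and no library from untreated or IgG-treated tumors was analysed here. The libraries therefore cannot be tested against each other, and a tumor-type difference cannot be told apart from a difference between 2 preparations. The 95% intervals below are exact Poisson (levels), exact binomial (shares) or exact conditional (ratios) intervals, and cover counting error only. The median UMI count that the study's methods give for each library is the one found in the file labelled as the other library, so each direction between "4T1p" and "4T1m" rests on the deposited label.

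PD-L1 and PD-L2 are membrane ligands of PD-1, and binding of PD-1 dampens signalling from the T cell receptor. Interferons are the best known inducers of PD-L1, which tumor-infiltrating neutrophils, monocytes and macrophages display as well as carcinoma cells. CD80 and CD86 are costimulatory ligands of CD28 that CTLA-4 competes for, and CD80 also binds PD-L1 on the same membrane. TIM-3 is an inhibitory receptor with galectin-9 among its ligands, CD200R1 restrains myeloid activation when it binds CD200, and SIRPα on phagocytes receives the CD47 "don't eat me" signal.

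The library labelled 4T1p (called 4T1p below) holds 1641 barcodes and that labelled 4T1m holds 2749. Of these, 1128 and 2092 had 250 to 5000 genes, at most 27000 UMIs and a mitochondrial share within the limit of the study's methods. These 3220 cells had median UMI counts of 2015 and 2739 and totals of 5570882 and 10831715 UMIs, and the libraries shared 0 barcodes. Clustering gave 11 clusters. A total of 4 were monocytic-like (679 cells in 4T1p, 723 in 4T1m) and 4 granulocytic-like (251 and 1022 cells), by C1qa, Apoe, Csf1r and related markers or by S100a8, S100a9, Ly6g and related markers. A B cell-like cluster (1 and 33 cells), a T cell-like cluster (7 and 23 cells) and an unnamed cluster of low depth led by Fabp5 (190 and 291 cells) made up the rest. A UMI of Ptprc, the pan-leukocyte gene, was found in 518 cells of 4T1p and 1575 of 4T1m. Among monocytic-like cells 45.2% in 4T1p and 75.8% in 4T1m had one, and in the low-depth Tmem176a cluster 25.1%. The study kept only cells with Ptprc expression and removed doublets. Cells without a Ptprc UMI were kept here, and requiring one was among the alternative settings. The largest monocytic-like cluster differed between the libraries, the Tmem176a cluster in 4T1p (303 cells, median of both libraries 1183 UMIs) and the Thbs1 cluster in 4T1m (295 cells, 10218 UMIs). Summed carcinoma markers stayed between 4.27 and 18.1 counts per 1000000 UMIs (CPM) in both lineages and libraries. Summed dendritic cell markers reached 31.1 CPM in 4T1m monocytic-like cells. The paper names C1q and MHC class II genes in monocytic cells, and interferon-inducible genes in granulocytic cells, enriched in 4T1m. Here C1qa in monocytic-like cells stood at 4839 CPM in 4T1p and 2485 in 4T1m, and H2-Ab1 at 4421 and 2125. Interferon-response RNA, described further on, was also found in a larger share of 4T1p granulocytic-like cells. The paper compared selected regions of cells, and whether the labels were exchanged was not tested.

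Cd274 and Pdcd1lg2 are neighbours on chromosome 19. In GRCm38, the build of the files, Cd274 spans chr19:29367455-29388095 and Pdcd1lg2 chr19:29410919-29471161, both on the plus strand, with a gap of 22.8 kb that holds 0 annotated genes. Promoter sequences from RefSeq (GRCm38.p6, 250 bases before to 50 after each start) matched 7 of the 10 genes (Cd86, Cd200r1 and Sirpa had no entry). Those of Cd274 and Lgals9 are shown because the levels of both genes were higher in cells with interferon-response RNA, as described further on. The first lies at chr19:29367188-29367487 on the plus strand and the second at chr11:78984875-78985174 on the minus strand. Capitals mark matches, on either strand, to ACGTG (hypoxia response core) in Cd274 and to GAAA, any 2 bases and GAAA (core of the interferon-stimulated response element, ISRE) in Lgals9.
Cd274: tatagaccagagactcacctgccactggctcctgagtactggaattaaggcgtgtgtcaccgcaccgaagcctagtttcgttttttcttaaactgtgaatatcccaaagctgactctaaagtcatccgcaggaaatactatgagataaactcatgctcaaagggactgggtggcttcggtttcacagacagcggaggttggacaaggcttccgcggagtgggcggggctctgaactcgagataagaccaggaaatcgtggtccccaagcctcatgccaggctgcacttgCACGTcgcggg
Lgals9: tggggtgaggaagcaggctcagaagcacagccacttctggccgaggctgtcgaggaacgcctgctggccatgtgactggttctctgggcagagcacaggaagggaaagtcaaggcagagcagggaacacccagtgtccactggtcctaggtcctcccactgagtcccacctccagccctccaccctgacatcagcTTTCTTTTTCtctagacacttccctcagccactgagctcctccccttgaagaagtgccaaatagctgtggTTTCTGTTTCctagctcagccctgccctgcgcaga
The Lgals9 window held 2 ISRE core matches, 1 on each side of the start site, and 3.44% of 32851 promoters in the table hold at least 1. The Cd274 window held none, and none for GAS (TTCNNNGAA, in 8.30% of promoters), NF-kB (GGG, any 2 bases and TTTCC, 1.63%) or AP-1 (TGANTCA, 7.81%). Its hypoxia core match is of a kind found in 19.6% of promoters. Cd80 had an AP-1 match, Havcr2 an AP-1 and a hypoxia core match, Cd47 a hypoxia core match, and Pdcd1lg2 and Pdcd1 none of these. The matches are letters in these windows, and binding was not measured.

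Cd274, the gene for PD-L1, was higher in granulocytic-like than in monocytic-like cells of both libraries. In 4T1p its level was 836 CPM (95% interval 775 to 900, 692 UMIs) in granulocytic-like cells and 157 (146 to 170, 675 UMIs) in monocytic-like cells. In 4T1m the levels were 574 (548 to 601, 1820 UMIs) and 219 (208 to 230, 1485 UMIs). The log2 ratio of granulocytic-like over monocytic-like was 2.41 (2.25 to 2.56) in 4T1p and 1.39 (1.29 to 1.49) in 4T1m, although as UMIs per cell rather than CPM the ratio in 4T1m turned to -0.21 (median depth there was 8637 UMIs in monocytic-like and 2482 in granulocytic-like cells). Granulocytic-like cells held 24.4% of the UMIs of all genes and 52.2% of the Cd274 UMIs. With each cell thinned to 1000 UMIs, 50.7% of granulocytic-like cells in 4T1p and 35.6% in 4T1m had a Cd274 UMI, against 11.3% and 17.0% of monocytic-like cells. Without thinning these shares were 67.7%, 53.0%, 30.0% and 52.6%. Thinning left out 22 and 83 granulocytic-like and 193 and 65 monocytic-like cells with fewer UMIs. No cell type here lacks Cd274 by definition, so free RNA was read from other genes. Of 8 granulocytic markers, S100a8 and S100a9 were found in monocytic-like cells at 0.458% to 0.715% of their granulocytic level. The other 6 ran from 0.0822% for Ly6g to 29.5% for Mmp9, with Il1r2 at up to 8.93% and Csf3r at up to 5.92%. Cd274 in monocytic-like cells stood at 18.8% of its granulocytic-like level in 4T1p and 38.1% in 4T1m.

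**Figure D1:**
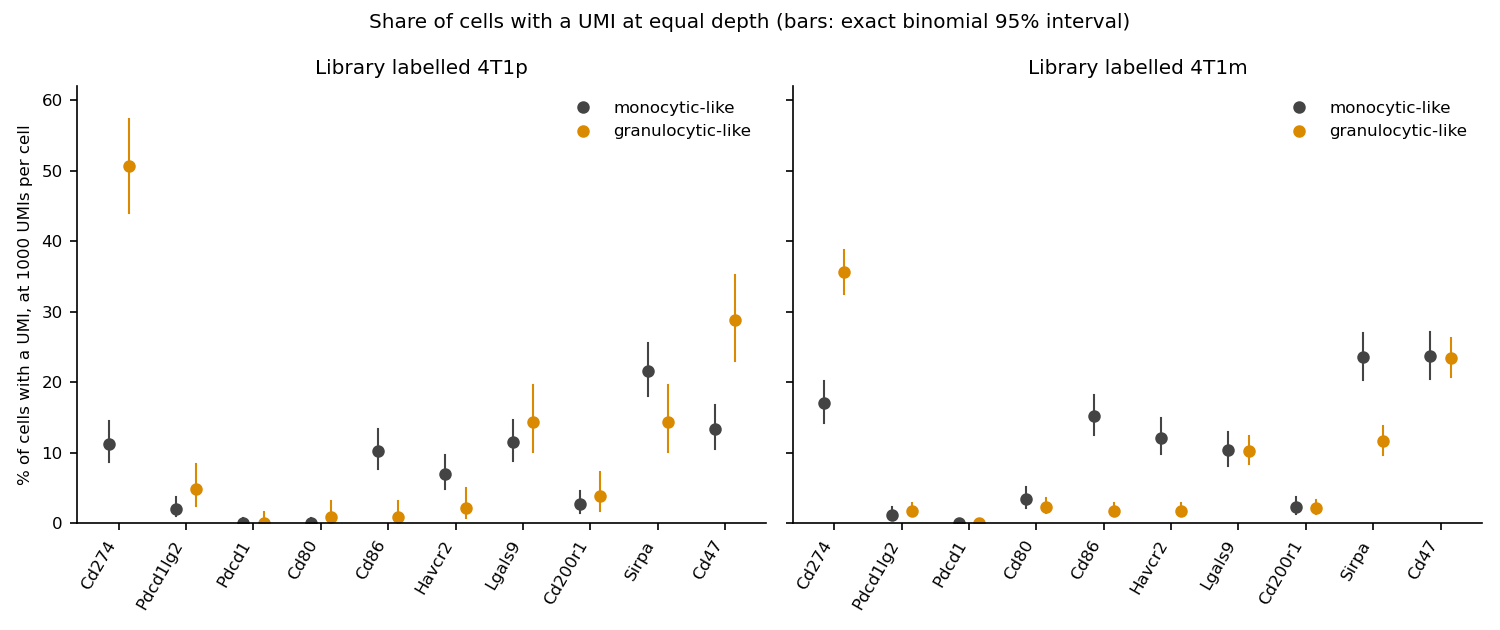
Share of cells with at least 1 UMI of each gene after thinning to 1000 UMIs per cell (y axis, %), by gene (x axis), in monocytic-like (grey) and granulocytic-like (orange) cells of each library; bars are exact binomial 95% intervals. Cd274 stands at 50.7% and 35.6% in granulocytic-like cells against 11.3% and 17.0% in monocytic-like cells, Cd86, Havcr2 and Sirpa stand higher in monocytic-like cells, and Pdcd1 is at 0.

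Among granulocytic-like clusters, the Cd274 level differed by up to several fold and in the same order in both libraries. In 4T1m it was 167 CPM (143 to 194) in the Camp cluster, which expresses the granule genes Camp, Ngp and Ltf of immature neutrophils. It was 328 (281 to 382) in the Slc2a3 cluster with Cxcr2 and Prok2, and 642 (588 to 699) in the Mirt1 cluster with Hdc and Csf1. It was 1199 (1124 to 1277) in the Ccdc126 cluster with Ciart and Tnfrsf23. In 4T1p the same clusters stood at 151 (102 to 214), 848 (682 to 1043), 870 (771 to 977) and 1504 (1335 to 1687), so that the Slc2a3 and Mirt1 clusters did not differ beyond counting error. The genes that define a cluster and Cd274 come from the same cells, and these levels are given as a description. At 1000 UMIs per cell, the share with a Cd274 UMI was 16.7% in 4T1p and 17.7% in 4T1m in the Camp cluster and 65.7% and 56.9% in the Ccdc126 cluster. A finer clustering kept that order, from 61.2 CPM in cells led by Camp, Ngp and Ltf to 1295 in cells led by Ciart and Ccdc126.

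All monocytic-like clusters ranged below the Slc2a3, Mirt1 and Ccdc126 clusters, but not all below the Camp cluster. The Ccl5 cluster, led by Ccl5, Ifnb1 and Cx3cr1, had 161 CPM of Cd274 (146 to 177) in 4T1p and 243 (225 to 262) in 4T1m. The Thbs1 cluster, with the monocyte gene Vcan, had 244 (211 to 280) and 221 (205 to 238). In 4T1m both clusters stood above the granulocytic-like Camp cluster at 167, with intervals that did not overlap. In 4T1p both were also above the Camp cluster at 151, but with overlapping intervals. The low-depth Tmem176a cluster, with C1qb and the MHC class II gene H2-Eb1, had 50.4 (34.0 to 71.9) and 158 (117 to 210), and the Birc5 cluster, with the cell division gene Top2a, had 103 and 56.3. In the unnamed Fabp5 cluster the level was 118 (87.1 to 157) and 91.9 (68.7 to 121).

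**Figure D2:**
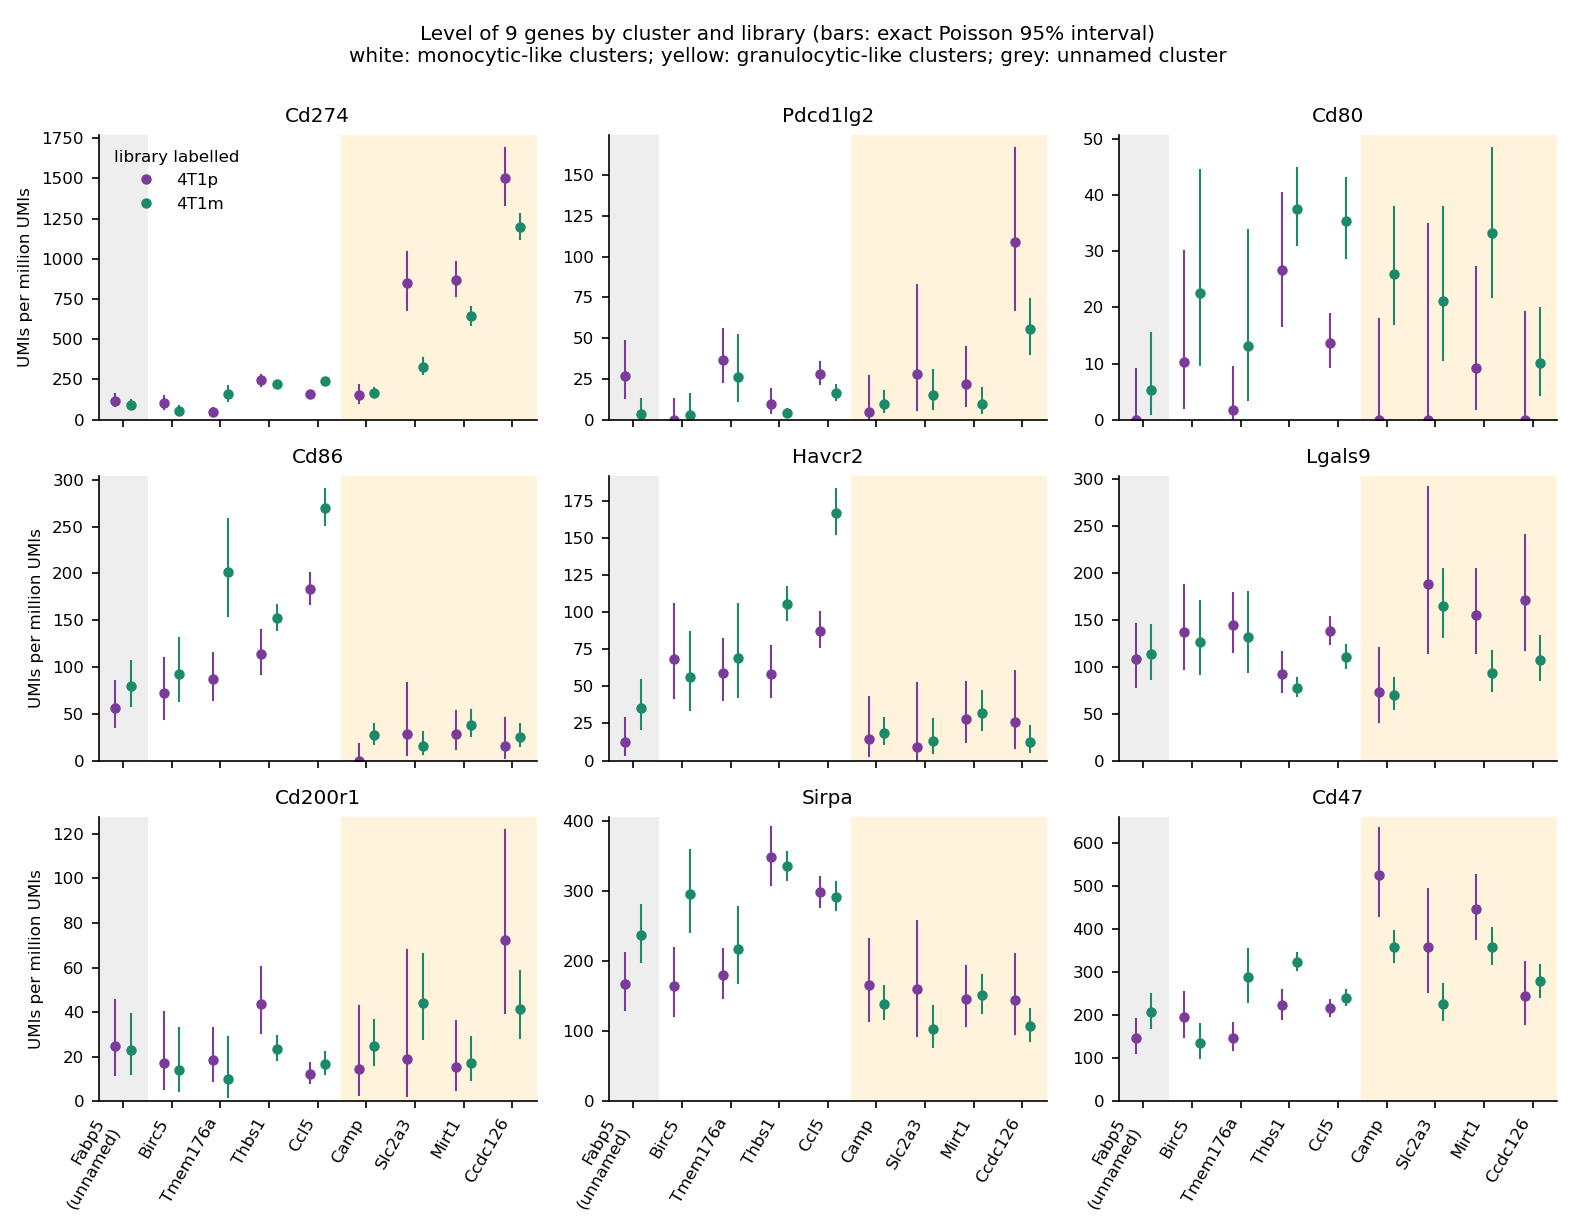
Level of 9 genes in CPM, UMIs per 1000000 UMIs, (y axes) in 9 clusters named by a leading gene (x axis), in the libraries labelled 4T1p (purple) and 4T1m (green), with exact Poisson 95% intervals; white marks monocytic-like, yellow granulocytic-like and grey the unnamed cluster. Cd274 climbs from 151 and 167 in the Camp cluster to 1504 and 1199 in the Ccdc126 cluster, while Cd86 and Havcr2 peak in the monocytic-like Ccl5 cluster.

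Between the libraries, Cd274 was higher in 4T1m monocytic-like cells and lower in 4T1m granulocytic-like cells. The log2 ratio of 4T1m over 4T1p was 0.48 (0.34 to 0.61) in the first and -0.54 (-0.67 to -0.41) in the second, neither past 2-fold. In granulocytic-like cells 3 of 4 clusters had an interval below 0, with the largest difference in the Slc2a3 cluster at -1.37 (-1.75 to -0.98), and the Camp cluster had 0.15 (-0.41 to 0.75). In monocytic-like cells the ratio was 1.65 (0.97 to 2.36) in the Tmem176a cluster, 0.60 (0.42 to 0.77) in the Ccl5 cluster and -0.14 (-0.37 to 0.09) in the Thbs1 cluster. In the Birc5 cluster it was -0.87 (-1.76 to -0.005), so of 4 monocytic-like clusters 2 had an interval above 0 and 1 below.

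Pdcd1lg2, the gene for PD-L2, was sparse, with 146 UMIs in the cells of 4T1p. Its level in monocytic-like cells was 23.8 CPM in 4T1p (102 UMIs) and 10.0 in 4T1m (68 UMIs), a log2 ratio of -1.25 (-1.71 to -0.79). In granulocytic-like cells it was 38.7 (32 UMIs) and 22.1 (70 UMIs), a ratio of -0.81 (-1.43 to -0.16). It was the only 1 of the 9 genes with at least 20 UMIs that was past 2-fold lower in 4T1m monocytic-like cells, where 3.05% of 10319 genes were. The most Pdcd1lg2 UMIs in 1 monocytic-like cell were 17 of the 102 in 4T1p and 5 in 4T1m. Without those 17 UMIs the ratio would fall just short of 2-fold, so the call rests on 1 cell of 4T1p. Weighting each monocytic-like cluster equally in both libraries left -0.64. Granulocytic-like over monocytic-like, the log2 ratio was 0.70 (0.08 to 1.29) in 4T1p and 1.14 (0.64 to 1.64) in 4T1m, and per cell it turned negative in both (-0.24 and -0.46). The Ccdc126 cluster, where Cd274 was highest, also had the highest Pdcd1lg2 level, at 109 CPM (67.4 to 166, 21 UMIs) in 4T1p and 55.3 (40.2 to 74.3, 44 UMIs) in 4T1m. The Tmem176a cluster followed at 36.9 and 26.4, and the Thbs1 cluster was among the lowest at 9.70 and 3.97. Across 20 points of cluster and library, which share libraries and depth, the Pearson correlation of the levels of the PD-1 ligands was 0.54.

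Pdcd1, the receptor gene, gave 7 UMIs in all cells. The T cell-like cluster of 4T1m held 5 of them, in 13.0% of 23 cells, a level of 33.4 CPM (10.8 to 77.9). Monocytic-like cells had 1 UMI in 4T1p and 0 in 4T1m, where 0 of 723 cells allows a share with a UMI of up to 0.509% (exact binomial upper limit). Granulocytic-like cells had 0 and 1 UMI. PD-1 RNA in these myeloid cells was thus not detectable above single UMIs at this depth.

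Cd86 was a monocytic-like gene in both libraries. Its level was 149 CPM (640 UMIs) in 4T1p and 201 (1363 UMIs) in 4T1m monocytic-like cells, against 18.1 (15 UMIs) and 27.5 (87 UMIs) in granulocytic-like cells. The log2 ratios of granulocytic-like over monocytic-like were -3.04 (-3.89 to -2.31) and -2.87 (-3.20 to -2.56). The granulocytic-like level was 12.1% and 13.7% of the monocytic-like level, while the macrophage genes C1qa, C1qb, C1qc and Apoe were found there at 2.27% to 4.72% of theirs and Csf1r at 7.13% and 7.72%. Cd68, another of the monocytic markers, was found there at 53.7% and 50.6%. Leaving out granulocytic-like cells with a UMI of C1qa, C1qb, C1qc or Apoe moved the ratio in 4T1p, which rests on 15 granulocytic-like UMIs, to -5.20. In 4T1m, with 87 UMIs, the ratio ran from -4.47 to -2.37 over 17 alternatives. The same setting moved the granulocytic-like ratio of 4T1m over 4T1p from 0.60 to 2.34, so the libraries did not move alike. The Ccl5 cluster had the highest monocytic-like level, 184 (167 to 201) in 4T1p and 270 (251 to 290) in 4T1m. B cell-like cells of 4T1m stood at 378 (289 to 485, 61 UMIs), with a UMI in 75.8% of 33 cells. Between the libraries the monocytic-like ratio was 0.43, and 3 of 4 clusters had intervals above 0.

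Cd80 was low, with 61 UMIs in 4T1p (14.2 CPM) and 236 in 4T1m (34.8) in monocytic-like cells and 3 (3.62) and 73 (23.0) in granulocytic-like cells. It was past 2-fold higher in 4T1m in both lineages, with log2 ratios of 1.29 (0.88 to 1.72) and 2.67 (1.06 to 4.98). It was the only member of the 10 to do so in either lineage, where 8.58% of 10319 genes and 9.09% of 6371 genes were past 2-fold higher in 4T1m. No member was past 2-fold lower in 4T1m granulocytic-like cells, where 5.65% of genes were. All 4 monocytic-like and all 4 granulocytic-like clusters had a higher level in 4T1m, and the interval excluded 0 in 1 and 2 of them. The Camp, Slc2a3 and Ccdc126 clusters of 4T1p had 0 UMIs, so any UMI in 4T1m made their level higher there. The highest 4T1m levels were 37.5 (31.2 to 44.8) in the Thbs1 cluster and 35.4 (28.9 to 43.1) in the Ccl5 cluster. The thinned share was 0% in 4T1p and 3.50% in 4T1m monocytic-like cells.

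Havcr2, the gene for TIM-3, was also mainly monocytic-like, with 91.5% of its UMIs in those cells. The levels were 76.7 CPM (329 UMIs) in 4T1p and 127 (864 UMIs) in 4T1m monocytic-like cells and 21.7 (18 UMIs) and 19.6 (62 UMIs) in granulocytic-like cells. The log2 ratios of granulocytic-like over monocytic-like were -1.82 (-2.59 to -1.14) and -2.70 (-3.10 to -2.33). The Ccl5 cluster had the highest level in both libraries, 87.7 (76.7 to 100.2) and 167 (153 to 183). In monocytic-like cells the ratio of 4T1m over 4T1p was 0.73 (0.55 to 0.92), and in granulocytic-like cells -0.15 with an interval that held 0.

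Lgals9, a ligand of TIM-3, did not separate the lineages. Its levels were 130 CPM (557 UMIs) in monocytic-like and 143 (118 UMIs) in granulocytic-like cells of 4T1p, and 96.4 (654 UMIs) and 101 (320 UMIs) in 4T1m. The log2 ratios between the lineages were 0.13 (-0.17 to 0.42) and 0.07 (-0.13 to 0.26), and both turned negative per cell (-0.80 and -1.53). Levels were lower in 4T1m in all 4 clusters of each lineage, but the interval lay below 0 in only 1 monocytic-like and 2 granulocytic-like clusters. Over the lineages the ratios were -0.43 (-0.60 to -0.27) and -0.50 (-0.81 to -0.18), although per cell the monocytic-like ratio was 0.14. Within granulocytic-like cells the Camp cluster was lowest, at 72.9 and 70.2, and the Slc2a3 cluster highest, at 188 and 165. In 4T1p the Slc2a3 level rested on 20 UMIs, with the Ccdc126 cluster (171, 33 UMIs) and the Mirt1 cluster (155, 50 UMIs) near it. The order of these clusters in 4T1p is therefore uncertain.

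Cd200r1 gave between 24 and 133 UMIs per lineage and library. Its levels were 19.4 CPM in 4T1p and 19.6 in 4T1m monocytic-like cells and 29.0 and 30.3 in granulocytic-like cells. The log2 ratios of 4T1m over 4T1p were 0.02 (-0.39 to 0.43) and 0.06 (-0.59 to 0.77). The Ccdc126 cluster was highest in 4T1p at 72.6 (39.7 to 122), and in 4T1m the Slc2a3 and Ccdc126 clusters stood together at 44.2 (28.0 to 66.3) and 41.5 (28.6 to 58.3). Among monocytic-like clusters the Thbs1 cluster was highest, at 43.6 (30.6 to 60.4) and 23.5 (18.5 to 29.4). Its log2 ratio of 4T1m over 4T1p, -0.89 (-1.48 to -0.28), was the only 1 of 4 monocytic-like clusters with an interval that excluded 0. Cd200r1 and Sirpa have close paralogs, and reads that could come from either copy make their counts uncertain.

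Sirpa was higher in monocytic-like cells, with 282 CPM (1211 UMIs) in 4T1p and 310 (2104 UMIs) in 4T1m against 152 (126 UMIs) and 128 (407 UMIs) in granulocytic-like cells. The log2 ratios of granulocytic-like over monocytic-like were -0.89 (-1.17 to -0.63) and -1.27 (-1.43 to -1.12), close to the median of all genes in that comparison, given below. The Thbs1 cluster led in both libraries at 348 (309 to 391) and 336 (316 to 356), followed by the Ccl5 cluster at 299 (278 to 320) and 292 (272 to 312). B cell-like cells had 0 UMIs and T cell-like cells 3. In the finer clustering, cells led by Cd163 and Lyve1 had 430 CPM. Between the libraries the log2 ratio was 0.13 in monocytic-like and -0.24 (-0.54 to 0.06) in granulocytic-like cells.

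Cd47, the gene for the SIRPα ligand, was found in every cell class. Its levels were 207 CPM (886 UMIs) in 4T1p and 277 (1877 UMIs) in 4T1m monocytic-like cells, and 407 (337 UMIs) and 317 (1003 UMIs) in granulocytic-like cells. B cell-like cells of 4T1m stood at 390 and T cell-like cells at 474. The log2 ratio of granulocytic-like over monocytic-like was 0.98 (0.79 to 1.16) in 4T1p and 0.19 (0.08 to 0.31) in 4T1m, which turned to -1.40 per cell. Among granulocytic-like clusters, the Camp cluster, where Cd274 was lowest, had the highest Cd47 level in 4T1p at 525 (431 to 634), with the Mirt1 cluster next at 446 (376 to 525). In 4T1m these clusters stood together, at 358 (322 to 396) and 359 (319 to 403). The ratio of 4T1m over 4T1p was 0.42 (0.30 to 0.54) in monocytic-like cells and -0.36 (-0.54 to -0.18) in granulocytic-like cells, with intervals below 0 in 3 of 4 granulocytic-like clusters. With all UMIs, cells with both Cd47 and Sirpa made up 58.1% of 4T1m and 31.2% of 4T1p monocytic-like cells. Thinned to 1000 UMIs these shares were 5.17% and 3.91%, against products of the single shares of 5.58% and 2.89%.

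Set against all genes, the lineage differences read as follows. Granulocytic-like cells of 4T1p had 1 of 9 members with at least 20 UMIs past 2-fold higher than monocytic-like cells (Cd274, where 11% of 8996 genes were) and 3 past 2-fold lower (Cd80, Cd86 and Havcr2, where 51.9% were). In 4T1m 2 were higher (Cd274 and Pdcd1lg2, background 10.3% of 10025 genes) and 3 lower (Cd86, Havcr2 and Sirpa, background 55.8%). The share of members called was below the background for lower genes in both libraries. Genes entered with at least 20 UMIs in both lineages together. Monocytic-like cells held 4287844 UMIs against 827918 in granulocytic-like cells of 4T1p, and 6786005 against 3168754 in 4T1m. A gene can thus enter through monocytic-like cells alone at a lower level than through granulocytic-like cells alone. This holds for each lineage background here and below, and its part in the shares and medians was not tested. The median log2 ratio was 0.13 in 4T1p and 0.07 in 4T1m over the members, against -1.09 and -1.27 over all genes. Relative to that median, Cd274 stood further up and Sirpa near 0. Between the libraries the medians of all genes were 0.10 in monocytic-like and 0.04 in granulocytic-like cells, and those of the members 0.42 and -0.24. The libraries also differed in erythroid genes, whose summed level was 1419 CPM in 4T1m and 9.10 in 4T1p monocytic-like cells, and whose part in the ratios was not tested.

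**Figure D3:**
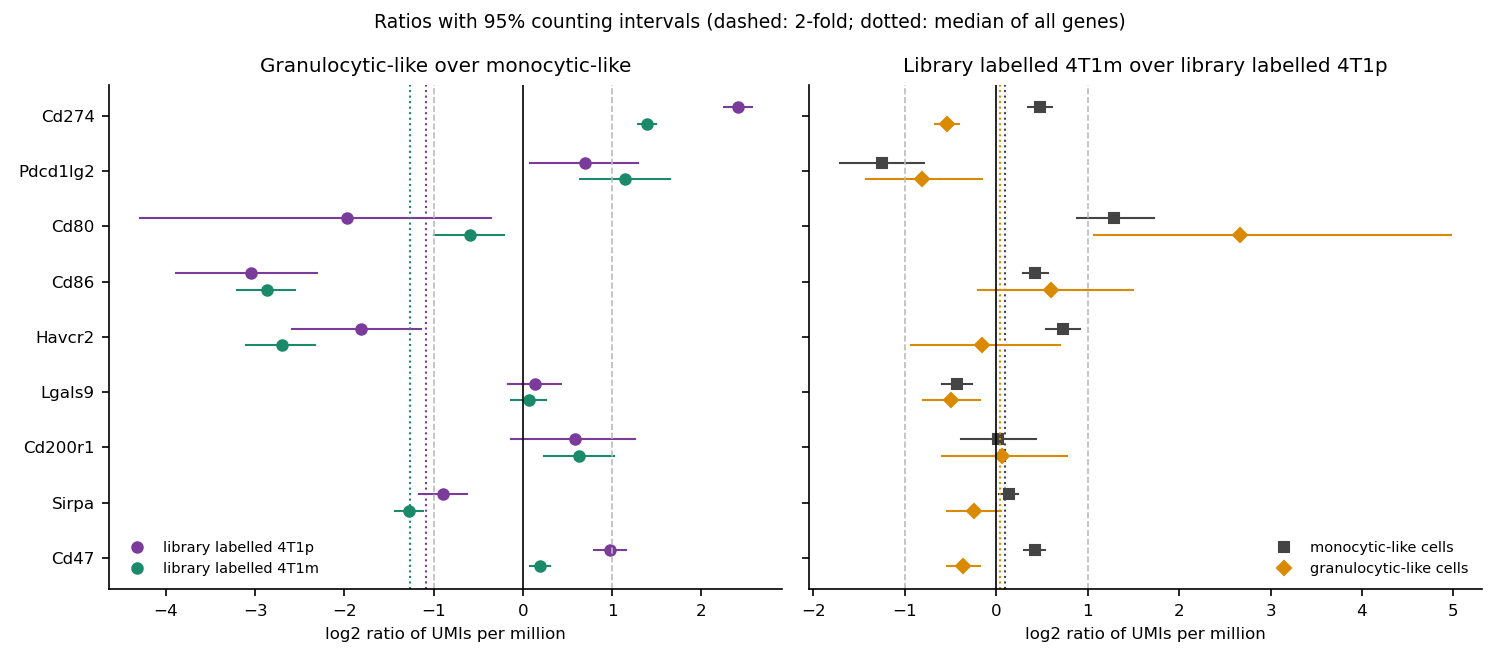
Log2 ratio of CPM (x axes) of 9 genes, for granulocytic-like over monocytic-like cells in each library (left) and for 4T1m over 4T1p in each lineage (right), with exact conditional 95% intervals; dashed lines mark 2-fold and dotted lines the median of all genes. Cd274 lies at 2.41 and 1.39 on the left, and on the right at 0.48 in monocytic-like and -0.54 in granulocytic-like cells.

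Cd274 and Lgals9 stood higher in cells that also carried RNA of interferon-response genes. This split was chosen after the values were seen. Cells with at least 1000 UMIs were divided by whether, after thinning to 1000, they had a UMI of Ifit1, Isg15, Rsad2, Cmpk2 or Usp18, 5 genes that interferon induces. Such a UMI was found in 66.8% (60.3 to 72.9) of granulocytic-like cells in 4T1p and 37.4% (34.3 to 40.6) in 4T1m, in 44.4% and 39.7% of monocytic-like cells, and in 2.94% of B cell-like and 10.3% of T cell-like cells. Granulocytic-like cells with the UMI had 1023 CPM of Cd274 in 4T1p and cells without it 525, a log2 ratio of 0.96 (0.71 to 1.22). In 4T1m the levels were 714 and 493, a ratio of 0.54 (0.40 to 0.67). Monocytic-like cells differed by 0.48 in 4T1p and 0.43 in 4T1m. Their median depth moved with the split, at 10279 UMIs with and 3094.5 without such a UMI in 4T1p and 11044 and 8401 in 4T1m, and its part in the ratio was not tested. In granulocytic-like cells the depths were 2944 and 2893 in 4T1p and 2698 and 2642.5 in 4T1m. Within granulocytic-like clusters, the ratio was above 0 in 8 of 8 pairs of cluster and library, with the interval above 0 in 7, and within monocytic-like clusters in 6 of 8, with the interval above 0 in 4.

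For Lgals9 the ratio of cells with over cells without an interferon-response UMI was 1.08 (0.45 to 1.75) in 4T1p and 0.70 (0.37 to 1.03) in 4T1m granulocytic-like cells, and 0.64 and 0.53 in monocytic-like cells. It was above 0 in 8 of 8 monocytic-like and 7 of 8 granulocytic-like pairs of cluster and library, with the interval above 0 in 5 and 4. Cd86 differed by 0.35 and 0.60 in monocytic-like cells, with an interval above 0 in 2 of 8 pairs and below 0 in the Birc5 cluster of 4T1m (-2.02, -5.13 to -0.04). In granulocytic-like cells Cd86 differed by 1.46 (-0.43 to 3.93) in 4T1p and 0.86 (0.21 to 1.51) in 4T1m. Havcr2 differed by -0.28 (-0.60 to 0.04) in 4T1p and 0.57 (0.38 to 0.77) in 4T1m monocytic-like cells. Cd47 differed by 0.11 in 4T1p and -0.25 (-0.45 to -0.06) in 4T1m granulocytic-like cells. Among granulocytic-like cells with the UMI, the Cd274 ratio of 4T1m over 4T1p was -0.52 (-0.68 to -0.35), and among those without it -0.09 (-0.33 to 0.15). For Lgals9 these ratios were -0.43 and -0.05. The pooled Cd274 value of cells without the UMI mixed clusters that differed in direction. In those cells Cd274 was lower in 4T1m than in 4T1p in the Ccdc126 cluster (1099 against 1360 CPM) and the Slc2a3 cluster (230 against 422, 14 UMIs in 4T1p). It was near equal in the Mirt1 cluster (523 against 515) and higher in the Camp cluster (137 against 25.5, 4 UMIs in 4T1p). The part of the cluster mix in the pooled ratios was not tested.

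**Figure D4:**
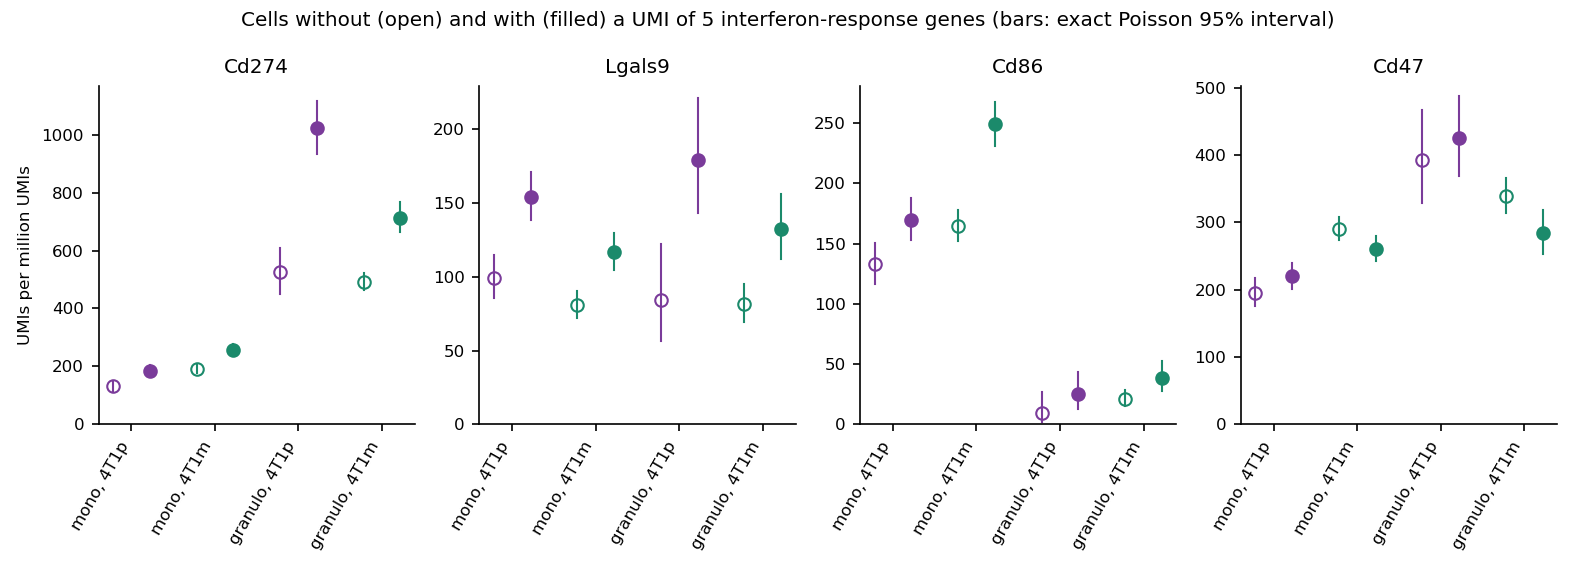
Level in CPM (y axes) of 4 genes in cells without (open) and with (filled) a UMI of 5 interferon-response genes, by lineage and library (x axis; purple 4T1p, green 4T1m), with exact Poisson 95% intervals. Cd274 in granulocytic-like cells stands at 1023 with and 525 without such a UMI in 4T1p and at 714 and 493 in 4T1m, Lgals9 and monocytic-like Cd86 are higher with it, and Cd47 shows no common direction.

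Genes known to regulate PD-L1 (17 genes of interferon signalling, NF-kB, hypoxia and protein stability) were counted in the same way. All 17 had at least 20 UMIs, and 4 in 4T1p and 2 in 4T1m were past 2-fold higher in granulocytic-like cells, with 3 lower in each. Over all genes, 11% and 10.3% were higher and 51.9% and 55.8% lower, so the higher genes made up a share near the background in 4T1m. Irf1, a transcription factor that interferon induces and that activates Cd274, had log2 ratios of 1.96 (1.74 to 2.18) in 4T1p and 1.27 (1.09 to 1.44) in 4T1m. Cmtm6, which keeps PD-L1 protein on the cell surface, had 1.14 (0.79 to 1.48) and 1.41, from 123 CPM against 56.0 in 4T1p and 133 against 49.8 in 4T1m. Irf9 and Jak2, both in the interferon pathway, were past 2-fold higher in granulocytic-like cells of 4T1p at 1.43 and 1.12. The lower genes were Cmtm4 (-3.36 and -4.15) and Myc (-3.33 and -4.28) in both libraries, Ifngr2 in 4T1p (-1.28) and Nfkb1 in 4T1m (-1.18). Cmtm4 and Myc each had 1 UMI in granulocytic-like cells of 4T1p and 2 in those of 4T1m. Medians of the list were 0.38 and 0.42, against -1.09 and -1.27 over all genes. Between the libraries, Hif1a, a subunit of hypoxia-inducible factor, was higher in 4T1m in monocytic-like cells (1.05) and granulocytic-like cells (1.15), as was Nfkb1 (1.43 and 1.12), and Jak2 in monocytic-like cells (1.24). In granulocytic-like cells Irf1 (181 CPM in 4T1m against 362 in 4T1p) and Stat2 (log2 ratio -1.28, -1.84 to -0.71) were past 2-fold lower in 4T1m. The counts were 3 higher and 0 lower of 17 in monocytic-like and 2 and 2 of 15 in granulocytic-like cells, with medians of 0.01 and 0.22. Over all genes, 8.58% were higher and 3.05% lower in 4T1m monocytic-like cells, and 9.09% and 5.65% in granulocytic-like cells.

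The other phagocytosis signals around Cd47 numbered 8 genes. Cd24a, a second "don't eat me" ligand, was higher in granulocytic-like cells, at 989 CPM against 46.9 in 4T1p and 814 against 97.7 in 4T1m. With at least 20 UMIs in 8 genes of the list in 4T1p and 7 in 4T1m, it was the only 1 past 2-fold higher, while 6 and 5 were lower, among them the "eat me" signal Calr (-2.69 and -3.34), against a background of 51.9% and 55.8% of all genes lower. Thbs1, which encodes the CD47 ligand thrombospondin-1 and leads one of the clusters, stood at 458 CPM in 4T1m and 41.3 in 4T1p monocytic-like cells, a log2 ratio of 3.47 (3.25 to 3.70). Between the libraries 2 were higher and 1 lower of 8 in monocytic-like cells, and 2 and 0 of 5 in granulocytic-like cells. The shares over all genes were 8.58% higher and 3.05% lower in monocytic-like cells, and 9.09% and 5.65% in granulocytic-like cells. List medians were -2.70 in 4T1p and -3.34 in 4T1m between the lineages (all genes -1.09 and -1.27), and -0.07 and -0.28 between the libraries.

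Of 18 genes listed with myeloid inhibitory receptors and their phosphatases, 5 were past 2-fold higher and 4 lower in granulocytic-like cells of each library, of 16 with at least 20 UMIs in 4T1p and 17 in 4T1m, with medians of 0.12 and 0.22. Over all genes 11% and 10.3% were higher and 51.9% and 55.8% lower. Cd300lf (2.76 and 2.38) was among the higher genes, and the inhibitory Fc receptor Fcgr2b (-3.26 and -3.51) and the collagen receptor Lair1 (-3.27 and -3.40) were among the lower. Between the libraries 1 of 17 passed 2-fold in monocytic-like cells, Cd72 at -1.07 (-1.24 to -0.91), and 0 of 16 in granulocytic-like cells, with medians of 0.02 and -0.07. Of all genes, 8.58% were higher and 3.05% lower in 4T1m monocytic-like cells, and 9.09% and 5.65% in granulocytic-like cells.

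The other co-signalling genes were mostly sparse in GR-1+ cells. Of 34 listed genes 32 were found by symbol, and 12 in 4T1p and 16 in 4T1m had at least 20 UMIs between the lineages. Granulocytic-like cells had 1 higher and 6 lower in 4T1p and 3 higher and 11 lower in 4T1m. In 4T1p both shares were near those over all genes (11% higher and 51.9% lower), and in 4T1m the latter were 10.3% and 55.8%. The medians were -1.10 and -4.28, and -2.25 in 4T1m with genes at 0 UMIs set to 3 UMIs. Tnfsf14 (LIGHT) was the gene higher in 4T1p, at 71.3 against 11.7 CPM, and stood at 50.8 against 14.4 in 4T1m. Tnfrsf9, which encodes the costimulatory receptor 4-1BB, was higher in monocytic-like cells of both libraries and differed between the libraries in opposite directions. Its log2 ratio of 4T1m over 4T1p was 1.13 (0.96 to 1.31) in monocytic-like and -1.83 (-2.67 to -0.98) in granulocytic-like cells, where it rested on 27 and 25 UMIs. The inhibitory receptor gene Lag3 had 74 UMIs in 4T1p and 29 in 4T1m monocytic-like cells, a ratio of -2.01 (-2.69 to -1.38), and 0 in granulocytic-like cells. Between the libraries 3 were higher and 1 lower of 16 in monocytic-like and 1 and 1 of 7 in granulocytic-like cells, with medians of 0.11 and -0.49. Over all genes these shares were 8.58% and 3.05% in monocytic-like cells, and 9.09% and 5.65% in granulocytic-like cells.

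The genes whose level was most like each member's over 20 points of cluster and library were ranked among 6417 genes with at least 200 UMIs. The points share 2 libraries and depth, so the correlations are descriptions. Closest to Cd274 were Fam134b (Pearson r 0.93), Gla (0.92) and Gch1 (0.91). Closest to Cd86 were Laptm5 (0.93), Cd83 (0.92) and Ulk2 (0.91), and closest to Havcr2 were Ndst1, Adap2 and Dock4 (each 0.86). Lgals9 was nearest to AF251705 and Ppt1 (each 0.88) and Tctex1d2 (0.87). For Sirpa the nearest were App (0.92), Tgm2 (0.90) and Clec5a (0.88). Within 4T1p alone Tgm2 had 0.45 and Clec5a -0.10, against 0.97 and 0.98 within 4T1m. Cd47 was nearest to Zfp281 (0.85), Cd200r1 to Plin2 (0.85), Cd80 to Areg (0.87) and Pdcd1lg2 to Apba3 (0.78).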

How the data were processed

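The authors deposited 1 filtered matrix of whole-number UMI counts per gene and barcode for each library, made with Cell Ranger on GRCm38 (mm10, a C57BL/6J reference, while the mice were BALB/c). The matrix header names software version 3.1.0. From these counts, the barcodes within the stated limits were normalized with sctransform 0.4.2 and clustered in Seurat 5.3.0 (11 components, resolution 0.8). Clusters were named from marker lists. Scrublet, in scanpy 1.11.5, marked 13 and 44 barcodes as doublets, which were left in. A level is the sum of a gene's UMIs over a group per 1000000 UMIs of all genes (CPM). With 1 library per tumor type no test was run. A ratio was called past 2-fold where its log2 value was beyond 1 with at least 20 UMIs in both groups together. The members, gene lists and markers were chosen with earlier results of these data known. All members are named, as are up to 6 genes past 2-fold with the most UMIs in each list and the 3 genes most like each member (pseudocount 10 CPM). The limits on barcodes, normalization, scaling, thinning and cell classes were varied as described in the closing section. Scripts ran in Python 3.11.15 and R 4.3.3 and were tested on simulated data.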

Additional observations from a re-analysis of the deposited data

Results flagged for a closer look

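For Cd274 and Cd47 the ratio of 4T1m over 4T1p pointed in opposite directions in the lineages. Cd274 had a log2 ratio of 0.48 in monocytic-like and -0.54 in granulocytic-like cells, and Cd47 had 0.42 and -0.36, with each 95% counting interval on its own side of 0. Within the 4 monocytic-like clusters, the Cd274 interval lay above 0 in 2 and below 0 in 1. The difference between the lineages was not tested, since each library is a single sample. The largest monocytic-like cluster differed between the libraries.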

How the results depend on the processing

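Over 628 alternative values of the ratios, 547 stayed within the counting interval, 79 moved out of it and 2 that were past 2-fold as reported turned direction, under 18 settings of which 15 were planned and 3 were chosen after seeing the data. In all 24 values changed sign, 10 of them counted as UMIs per cell and the others for Cd200r1 and for Havcr2 between the libraries in granulocytic-like cells. As UMIs per cell, Cd274 and Pdcd1lg2 turned to -0.21 and -0.46 between the lineages of 4T1m, and Cd274, Cd80, Cd86 and Havcr2 were past 2-fold higher and no gene lower in 4T1m monocytic-like cells (4 genes, in place of Cd80 higher and Pdcd1lg2 lower). UMIs per cell are not scaled for depth, whose median was 8637 UMIs in 4T1m and 2026 in 4T1p monocytic-like cells. Between the libraries in monocytic-like cells, only 1 gene, Cd80, was past 2-fold with a mean of each cell's level and with equal cluster weights. In granulocytic-like cells, 1 gene was past 2-fold between the libraries in the values reported. It was 3 with thinned cells, 2 with a mean of each cell's level and 2 without cells that had a C1q or Apoe UMI. The share of all genes past 2-fold under these alternative settings is not given here, so these counts have no background beside them. The ratio of Cd274 between the libraries ran from -0.77 to -0.41 in granulocytic-like and from 0.35 to 1.05 in monocytic-like cells. Between the lineages it ran from 1.47 to 3.40 in 4T1p and from -0.21 to 1.91 in 4T1m. Cd80 was past 2-fold higher in 4T1m in 18 of 18 alternatives in granulocytic-like and 17 of 17 in monocytic-like cells (thinned cells gave no ratio there, with 0 UMIs in 4T1p), and Cd47 between the lineages of 4T1p in 9 of 17. The granulocytic-like Cd80 ratio as reported rests on 3 UMIs in 4T1p. The likeness of Sirpa was -0.10 to Clec5a and 0.45 to Tgm2 within 4T1p. Causes were not tested. No paired analysis was possible because each tumor type has 1 library and no result comes from a test. Low depth limits Pdcd1, Cd80, Pdcd1lg2 and Cd200r1 most.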
